A study of Mus musculus with 15 samples.

Results

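Purified mature dermal adipocytes from mice at postnatal day 29 (P29, 3 libraries) were compared with the same preparation at postnatal day 21 (P21, 3 libraries). The genes compared were all those at 1 FPKM (fragments scaled to gene length and library depth) or more in at least 3 of the 15 libraries of the series, 12259 of the 35275 genes in the file. The animals of both groups were C57BL/6 mice with no treatment or engineered allele named in the labels. Adipocytes were freed from dorsal skin with collagenase IV and dispase II and collected by flotation, a preparation that enriches fat-filled cells and leaves some RNA of other skin cells. The labels give neither sex, hair cycle stage, hour of harvest nor whether a library is 1 animal or a pool. The spread behind each p-value is thus that of these samples and could be technical. The other 9 libraries, 3 each at P25, P35 and P49, entered the estimate of the spread and are otherwise used only for levels set beside those at P21 and P29. The P25 libraries were uneven with one another, and the comparison of P29 with P21 takes no mean from them.

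Dermal white adipose tissue lies under the reticular dermis and surrounds the bases of the hair follicles. In the mouse this layer thickens while follicles grow and thins while they rest, and adipocyte lineage cells both receive and send signals of the hair cycle. Adipocytes store fatty acids as triglyceride in a lipid droplet, make part of those fatty acids themselves from glucose, and release them again by lipolysis. They also secrete hormones and lay down a basement membrane around each cell.

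The 6 libraries held 23691069 to 29419595 reads on genes, so 3 reads on a gene of 1 kb stood for 0.102 to 0.127 FPKM. On the first principal component of all 15 libraries, which accounted for 67.7% of the variance of the 500 most variable genes, P21 lay at -33.6 to -18.6 and P29 at 3.88 to 19.1, with P29 replicate 2 nearest to P21. All 18 genes of a mature adipocyte marker list were detected in all 6 libraries, with a summed level of 29888 to 38434 FPKM at P21 and 43996 to 45313 at P29. Values are printed below in the order of replicates 1, 2 and 3, and a log2 change is the fitted difference, P29 minus P21, in log2(FPKM + 1), which understates the change of genes near or under 1 FPKM.

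Of the 12259 genes 3823 passed an adjusted p of 0.05 in limma and are called changed here, which is 31.2%. Those called higher at P29 numbered 1381 (11.3%) and those called lower 2442 (19.9%). Among them 161 genes (1.31% of those tested) were at least 2-fold higher and 749 (6.11%) at least 2-fold lower. All 3 P29 libraries lay above all 3 P21 libraries for 2493 genes (20.3%) and below them for 3913 (31.9%), whether called or not. Of the called genes, 1367 of 1381 higher and 2424 of 2442 lower ones had no overlap. A lack of overlap thus adds little to a call. Among the higher calls were 20 of 37 tested genes of oxidative phosphorylation, 8 of 19 of fatty acid synthesis and 7 of 16 of triglyceride synthesis. Among the lower ones were 19 of 22 immediate early genes, 14 of 18 imprinted growth genes, 14 of 20 fibroblast markers and 6 of 6 mast cell markers. Fits with 1 library left out have less power, and they lost many of these calls. Those that held in each of the 6 fits that leave out a P21 or P29 library numbered 2 for oxidative phosphorylation, 3 for fatty acid synthesis, 6 for triglyceride synthesis, 10 for immediate early genes, 6 for imprinted growth genes, 6 for fibroblast markers and 6 for mast cell markers. The split of the calls depended on scaling. The median log2 change over all genes was -0.07 on deposited FPKM, 0.07 after quantile normalization and -0.0017 after median-ratio scaling, and the calls became 2276 higher with 1544 lower and 1973 higher with 1885 lower. The number of calls also changed in fits with 1 library left out. A call lost there does not show that it hangs on that library. Without P29 replicate 1 there were 602 higher and 820 lower calls, without P21 replicate 1 708 and 1025, without P29 replicate 3 887 and 1249, and without P21 replicate 3 889 and 1228. Without P25 replicate 2, which enters the spread only, they were 2089 and 3579. A fit of the 6 libraries alone gave 1528 higher and 2719 lower calls.

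**Figure D1:**
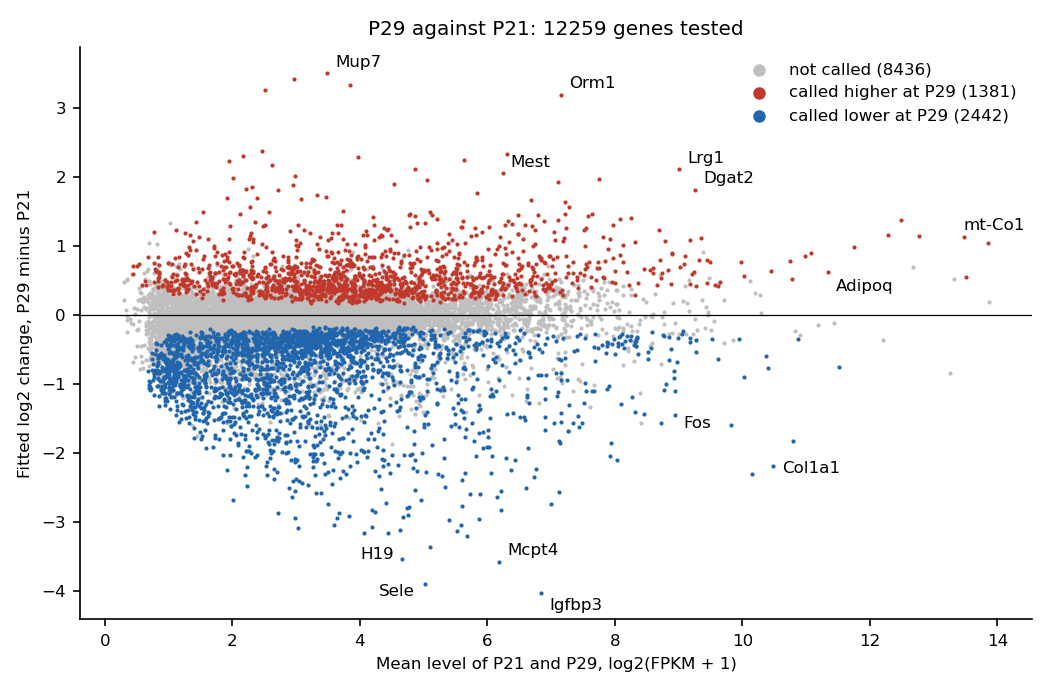
Each point is 1 of the 12259 tested genes, placed by its mean level at P21 and P29 in log2(FPKM + 1) and by its fitted log2 change, with genes called higher in red (1381), called lower in blue (2442) and the rest in grey. The downward changes reach -4.03 for Igfbp3 and the upward ones 3.51 for Mup7.

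The 12 largest rises among genes at 5 FPKM or more, chosen to have no overlap between the ages and to be called with each of the 6 libraries left out in turn, included 6 major urinary protein (Mup) genes, which encode small lipid-carrying lipocalins best known from liver and urine. Mup7 (ENSMUSG00000073842, chr4:60066469-60070475, - strand) stood at 0.461, 1.62 and 0.448 FPKM at P21 and 14.8, 22.8 and 21 at P29 (log2 change 3.51 ± 0.32 SE, adjusted p = 6.25e-05). Mup3 stood at 2.18, 1.97 and 0.784 FPKM at P21 and 23.8, 21.7 and 30.03 at P29 (log2 change 3.34 ± 0.34 SE, adjusted p = 1.42e-04). All 8 Mup genes tested, of 21 in the file, were called higher, with log2 changes of 1.20 to 3.51. These genes are near-identical copies of one another on chromosome 4, so how reads were divided among them is uncertain. At P25, P35 and P49 the means of Mup17 were 1.1, 5.76 and 2.31 FPKM, highest at P29 over the 5 ages, whereas those of Mup10 were 1.69, 9.61 and 15.7 FPKM, highest at P49.

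Orm1 and Orm2, which encode the acute phase plasma protein orosomucoid and are also close copies, rose with them. Orm1 (ENSMUSG00000039196, chr4:63344560-63348163, + strand) was at 37.9, 45.3 and 10.3 FPKM at P21 and 297, 230.2 and 229 at P29 (log2 change 3.20 ± 0.41 SE, adjusted p = 4.91e-04). Hsd11b1, the enzyme that regenerates active glucocorticoid inside cells, was at 25.8, 33.8 and 17.7 FPKM at P21 and 137, 135 and 119.5 at P29 (log2 change 2.34 ± 0.17 SE, adjusted p = 3.48e-05). Its means at P25, P35 and P49 were 88, 118 and 64.4 FPKM, so P29 held the highest mean of the 5 ages. Pmepa1, a TGF-beta induced gene that dampens the same pathway, was at 14.6, 17.7 and 15.9 FPKM at P21 and 82.9, 99.3 and 61.6 at P29 (log2 change 2.25 ± 0.17 SE, adjusted p = 3.57e-05). Cspg4, a proteoglycan of pericytes and other progenitor cells, was at 9.9, 12.2 and 7.77 FPKM at P21 and 49.2, 39.9 and 49.7 at P29 (log2 change 2.12 ± 0.17 SE, adjusted p = 3.57e-05). Crtac1, a secreted matrix protein first described in cartilage, was at 0.78, 0.885 and 0.663 FPKM at P21 and 7.98, 9.46 and 7.29 at P29 (log2 change 2.38 ± 0.20 SE, adjusted p = 3.96e-05).

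The 12 largest falls, chosen by the same rule, were led by Igfbp3, a secreted carrier of insulin-like growth factors. Igfbp3 (ENSMUSG00000020427, chr11:7206086-7213923, - strand) stood at 291, 146 and 209 FPKM at P21 and 11.4, 15.4 and 9.1 at P29 (log2 change -4.03 ± 0.40 SE, adjusted p = 1.09e-04). Sele, the endothelial adhesion molecule E-selectin, was at 101, 28.9 and 51.1 FPKM at P21 and 2.75, 4.19 and 1.45 at P29 (log2 change -3.90 ± 0.66 SE, adjusted p = 0.00236). H19, an imprinted noncoding RNA, was at 61.2, 29 and 46.8 FPKM at P21 and 2.34, 4.68 and 1.98 at P29 (log2 change -3.54 ± 0.49 SE, adjusted p = 8.52e-04). Of the 12, 4 were mast cell proteases. Mcpt4 was at 104, 106 and 185 FPKM at P21 and 7.84, 18.6 and 6.1 at P29 (log2 change -3.58 ± 0.66 SE, adjusted p = 0.00376), and Cpa3, Cma1 and Tpsb2 had log2 changes of -3.36, -3.21 and -3.13. In these 4 genes P29 replicate 2 was the highest P29 library and P21 replicate 3 the highest P21 library. With log2 changes in brackets, the other 5 were Hmcn2 (-3.17) and Fndc1 (-3.07), both matrix-associated, Mgp (-3.16), an inhibitor of calcification, Adamts4 (-3.12), a protease that cuts proteoglycans, and Akr1c18 (-3.09), which inactivates progesterone.

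**Figure D2:**
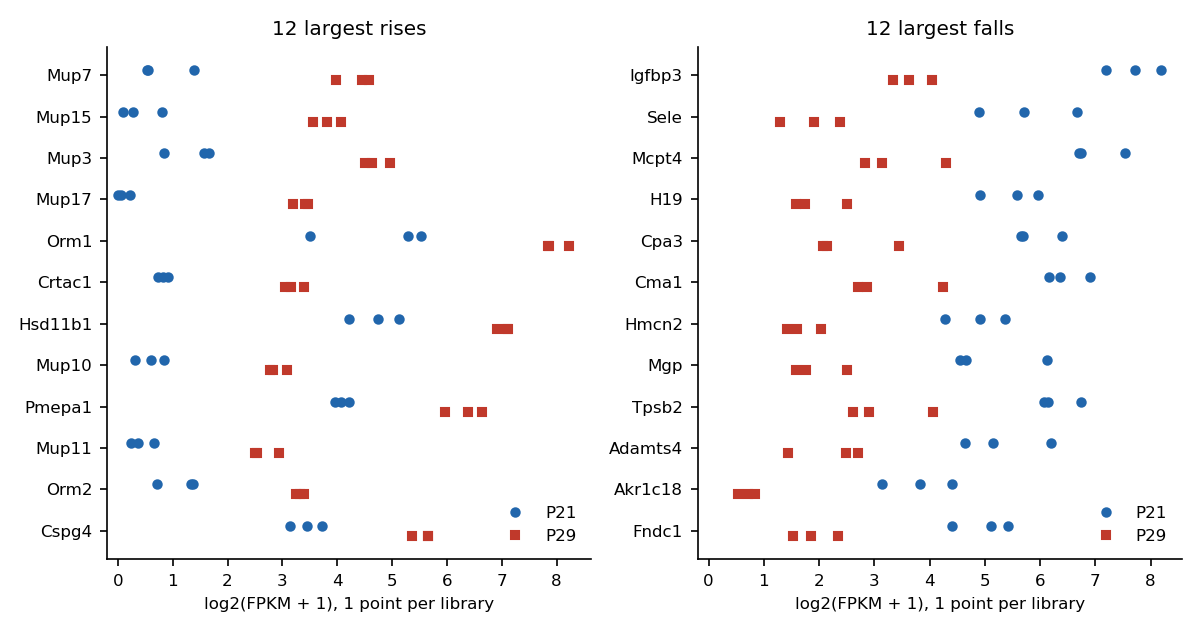
The 12 largest rises (left) and 12 largest falls (right) are shown with 1 point per library, P21 as blue circles and P29 as red squares, on a log2(FPKM + 1) axis. All 24 genes were chosen to have no overlap between the ages, and in the mast cell proteases Mcpt4, Cpa3, Cma1 and Tpsb2 the highest P29 point is replicate 2.

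Both sets were compared with the other ages by level, of which P25 lies between P21 and P29. The mean of each of the 12 rising genes lay nearer to its P29 than its P21 mean in 5 of 12 genes at P25, 12 of 12 at P35 and 11 of 12 at P49, and the counts for the 12 falling genes were 4, 12 and 12. These counts use the same P29 and P21 libraries as the choice of the genes and are a description.

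By FPKM gained or lost, the 10 largest changes each way were taken among called genes chosen to have no overlap between the ages. The largest gains were transcripts of the mitochondrial genome, which encodes 13 subunits of the respiratory chain. mt-Co1, a subunit of cytochrome c oxidase, was at 8753, 10141 and 10091 FPKM at P21 and 21203, 18291 and 20427 at P29 (log2 change 1.05 ± 0.16 SE, adjusted p = 0.00119). mt-Cytb, a subunit of complex III, was at 6386, 7595 and 7279 FPKM at P21 and 17936, 13372 and 15664 at P29 (log2 change 1.14 ± 0.18 SE, adjusted p = 0.00169). All 13 protein-coding mitochondrial genes were called higher, with a median log2 change of 1.17 and a range of 0.79 to 1.45. They were not measured equally well. The median is the value of mt-Atp8, which was at 0.333, 0.558 and 0.378 FPKM at P21 and 5.16, 0.72 and 2.07 at P29. At 9.61 to 68.3 FPKM at P21 and 25.9 to 190 at P29, mt-Nd3, mt-Nd4l, mt-Co2, mt-Co3 and mt-Atp6 were also far below mt-Co1. The reason was not tested. Transcripts of the mitochondrial genome took 3.43% to 4.10% of the reads on genes at P21 and 7.34% to 9.08% at P29. FPKM is relative to each library's total, so a gain in these transcripts lowers all other values. After quantile normalization 12 of the 13 remained called, and the exception was mt-Nd1 (under quantile normalization, 0.0822).

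The other large gains were adipocyte products. Fabp4, the main fatty acid carrier of the adipocyte cytosol, was at 8634, 9891 and 9621 FPKM at P21 and 14256, 13129 and 13952 at P29 (log2 change 0.56 ± 0.16 SE, adjusted p = 0.0249). Lpl, which hydrolyses circulating triglyceride, was at 1360.3, 1829.7 and 1368 FPKM at P21 and 2943, 2711 and 2763 at P29 (log2 change 0.90 ± 0.19 SE, adjusted p = 0.00618). Scd1, which makes monounsaturated fatty acids, was at 1949, 3316 and 1775 FPKM at P21 and 5124, 3564 and 4985 at P29 (log2 change 1.00 ± 0.25 SE, adjusted p = 0.0132). Adipoq, which encodes adiponectin, was at 1724, 2349 and 2047 FPKM at P21 and 3051, 3282 and 3046 at P29 (log2 change 0.63 ± 0.20 SE, adjusted p = 0.0348). The adjusted p was above 0.05 for Fabp4 (without P21 replicates 1 or 3 or P29 replicates 1 or 3, up to 0.0894, under quantile normalization, 0.739), Scd1 (without P21 replicates 1 or 3 or P29 replicate 1, up to 0.0588) and Adipoq (without any 1 of 5 libraries, up to 0.128 without P21 replicate 1, with no filter, 0.0575). The log2 change of Fabp4 was below 0 under quantile normalization, so its direction depends on the normalization.

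The largest losses in FPKM were led by interstitial collagens. Col1a1, a chain of type I collagen made chiefly by fibroblasts, was at 2998, 1899 and 2115 FPKM at P21 and 437, 775 and 368 at P29 (log2 change -2.20 ± 0.70 SE, adjusted p = 0.0341). Col3a1, the chain of type III collagen, was at 3501, 2143 and 2661 FPKM at P21 and 704, 1021 and 617 at P29 (log2 change -1.83 ± 0.55 SE, adjusted p = 0.0274). Col1a2 had a log2 change of -2.30. In all 3 genes P29 replicate 2 was the highest of the P29 libraries. Gpx3, a secreted glutathione peroxidase, was at 1155, 1395 and 1529 FPKM at P21 and 407, 479 and 463 at P29 (log2 change -1.59 ± 0.19 SE, adjusted p = 2.99e-04). Gsn, which encodes gelsolin, an actin-severing protein, was at 2977, 4294 and 3804 FPKM at P21 and 2299, 1973 and 2274 at P29 (log2 change -0.75 ± 0.19 SE, adjusted p = 0.0138). The metallothionein genes Mt1 and Mt2, which bind zinc and copper, fell by 0.76 and 0.90 on the log2 scale, Glul, glutamine synthetase, by 0.59 and Fth1, the ferritin heavy chain, by 0.35. The call was lost for Col1a1 (without any 1 of 5 libraries, up to 0.105 without P21 replicate 1, with no filter, 0.0568) and Col3a1 and Col1a2 (without P21 replicates 1 or 3 or P29 replicates 1 or 3, up to 0.093 and 0.0899) among the collagens, and for Mt1 (without P21 replicate 2 or P29 replicates 1 or 3, up to 0.101), Mt2 (without P21 replicate 2 or P29 replicates 1 or 3, up to 0.117, in the 6-library fit, 0.0522), Glul (without any 1 of 10 libraries, up to 0.122 without P21 replicate 2, under median-ratio scaling, 0.0736, with no filter, 0.0637) and Fth1 (without P21 replicates 2 or 3 or P29 replicates 1 or 3, up to 0.0919, in the 6-library fit, 0.0548, under median-ratio scaling, 0.0571).

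Genes were next read by function, in lists assembled from general knowledge of adipocytes and skin with earlier results of these data known. Each count is to be read against the 11.3% called higher and 19.9% called lower over all genes, and each median against the all-gene median of -0.07. For fatty acid synthesis 8 of 19 tested members were called higher and 1 lower, with a median log2 change of 0.71. The higher calls became 10 after quantile normalization, after median-ratio scaling and in the 6-library fit. At an unadjusted p under 0.05, 13 members of this pathway were higher and 1 lower. Srebf1, which encodes the transcription factor SREBP1 that drives this pathway, was at 82.5, 68.2 and 81.9 FPKM at P21 and 257, 217 and 221 at P29 (log2 change 1.57 ± 0.18 SE, adjusted p = 2.70e-04). Elovl6, which lengthens palmitate to stearate, was at 4.46, 3.65 and 2.27 FPKM at P21 and 14.2, 8.25 and 21.3 at P29 (log2 change 1.75 ± 0.35 SE, adjusted p = 0.00557). Its P29 libraries spread widely, and all lay above the highest P21 library. Fads3, of the fatty acid desaturase family, rose by 0.81 on the log2 scale, while Fads1, a desaturase that makes arachidonate, was called lower (log2 change -0.43, adjusted p = 0.0357). Some of the best known members did not pass. Fasn, fatty acid synthase, was at 612, 534 and 258 FPKM at P21 and 1055, 525 and 1018 at P29 (log2 change 0.91 ± 0.36 SE, adjusted p = 0.0709). Acly, ATP citrate lyase, was at 123, 113 and 47.5 FPKM at P21 and 211, 88.8 and 156 at P29 (log2 change 0.71 ± 0.40 SE, adjusted p = 0.189). In both genes P29 replicate 2 lay within the P21 range and replicates 1 and 3 above it. In other fits the call was lost for Fads1 (without P21 replicates 1 or 2 or P29 replicates 1 or 2, up to 0.136, under quantile normalization, 0.0982, under median-ratio scaling, 0.101, with no filter, 0.0623).

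In cholesterol synthesis 4 of 24 tested members were called higher and 0 lower (1 lower at an unadjusted p under 0.05, 0 by voom), with a median log2 change of 0.33. The higher calls rose to 10 after quantile normalization and 7 after median-ratio scaling. Insig1, a sterol sensor whose own transcription is a standard readout of SREBP activity, was at 73.2, 50.3 and 55.5 FPKM at P21 and 175, 133 and 132 at P29 (log2 change 1.29 ± 0.18 SE, adjusted p = 7.58e-04). Its mean was higher at P25 than at P29, with 268, 148 and 155 FPKM at P25, P35 and P49. Hmgcs1, which makes the HMG-CoA of the pathway, was at 35.7, 27.6 and 34 FPKM at P21 and 64.8, 65.3 and 46.1 at P29 (log2 change 0.83 ± 0.18 SE, adjusted p = 0.00669). Acat2, an acetoacetyl-CoA forming enzyme, was at 33.8, 33.4 and 32.4 FPKM at P21 and 61.7, 48 and 59.2 at P29 (log2 change 0.74 ± 0.22 SE, adjusted p = 0.0261). The groups did not overlap in these 3 genes. Other fits ended the call of Acat2 (without any 1 of 5 libraries, up to 0.0957 without P29 replicate 1).

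Promoter windows of 300 bases, 250 before to 50 after the annotated start in the RefSeq annotation of GRCm38.p6, were searched on both strands for the sterol response core TCACNCCAC, the E-box CACGTG and the CCAAT box. A window was found for 16 fatty acid synthesis genes, 17 cholesterol synthesis genes and 8928 tested genes. The sterol response core stood in 1, 1 and 125 of them (6.25%, 5.88% and 1.40%), the E-box in 4, 4 and 1067 (25%, 23.5% and 11.95%), and CCAAT in 12, 16 and 3795 (75%, 94.1% and 42.5%). The matches with the sterol response core are printed because these 2 genes are the only members of either list with that exact sequence in the window, all upstream of the start. Capitals mark the match, on the gene's own + strand at chr13:119690184-119690252 for Hmgcs1 and chr5:135106725-135106793 for Mlxipl.
Hmgcs1: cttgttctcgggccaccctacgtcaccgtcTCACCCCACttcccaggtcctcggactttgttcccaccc
Mlxipl: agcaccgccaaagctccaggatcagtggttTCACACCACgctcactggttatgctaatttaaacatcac
Mlxipl encodes ChREBP, the glucose-responsive partner of SREBP1 in lipogenesis. Its log2 change was 0.59 with an adjusted p of 0.0510, just outside the threshold, while that of Hmgcs1 was 0.83. Mlxipl lies outside the rule for named genes and was chosen for its sequence match. A match describes the letters and does not show that a factor binds there.

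Triglyceride synthesis moved in 1 direction among its called members. Of the list, 7 of 16 tested members were called higher and 0 lower (1 lower at an unadjusted p under 0.05, 0 by voom), with a median log2 change of 0.25. Dgat2, which adds the last acyl chain to triglyceride, was at 306, 262 and 236 FPKM at P21 and 1078, 908 and 859 at P29 (log2 change 1.82 ± 0.18 SE, adjusted p = 1.09e-04). Agpat2, which makes phosphatidic acid and whose loss causes lipodystrophy, was at 177, 132 and 123 FPKM at P21 and 416, 296 and 356 at P29 (log2 change 1.31 ± 0.20 SE, adjusted p = 0.0013). Agpat9, now named Gpat3, the first acyltransferase of the pathway in adipocytes, was at 38.6, 34.7 and 27.8 FPKM at P21 and 79, 64.6 and 87.2 at P29 (log2 change 1.17 ± 0.20 SE, adjusted p = 0.00235). All P29 libraries of these genes lay above all P21 libraries. The means of Dgat2 at P25, P35 and P49 were 952, 1089.9 and 1018 FPKM, close to the P29 level.

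Among lipid droplet genes 4 of 12 tested members were called higher and 1 lower, and 0 remained higher with each of the 6 libraries left out in turn. Plin1, the coat protein of the adipocyte droplet, was at 683, 751 and 802 FPKM at P21 and 1349.8, 1153 and 1319.7 at P29 (log2 change 0.77 ± 0.20 SE, adjusted p = 0.0151). G0s2, an inhibitor of the lipase ATGL, was at 172, 185 and 211 FPKM at P21 and 424, 323 and 299.7 at P29 (log2 change 0.87 ± 0.21 SE, adjusted p = 0.0108), and Bscl2, seipin, had a log2 change of 0.70. Hsd17b11, a droplet-associated dehydrogenase, was called lower (log2 change -0.73, adjusted p = 0.00169). An adjusted p above 0.05 was obtained for Plin1 (without P21 replicate 1 or P29 replicate 1, up to 0.0602) and G0s2 and Bscl2 (without P29 replicate 1, 0.0545 and 0.0618). For lipolysis 7 of 21 tested members were called higher and 4 lower, and the called members fell on both sides of hormonal control. Ptger3 and Npr3, which oppose lipolysis through prostaglandin E2 and through clearance of natriuretic peptides, rose by 1.03 and 1.28 on the log2 scale. Npr1, the signalling natriuretic peptide receptor, was called lower (log2 change -1.10, adjusted p = 0.0328), as was Gnas (log2 change -0.63, adjusted p = 0.0216), the stimulatory G protein. Adcy5, an adenylyl cyclase, rose by 1.10 on the log2 scale. Lipe, hormone-sensitive lipase, was at 259.6, 334 and 282 FPKM at P21 and 438, 444 and 489 at P29 (log2 change 0.65 ± 0.20 SE, adjusted p = 0.0287), whereas Pnpla2, the lipase ATGL that starts lipolysis, was at 1096, 1419 and 1234 FPKM at P21 and 1302, 1181 and 1315 at P29 with overlapping groups (log2 change 0.02 ± 0.22 SE, adjusted p = 0.939). Leaving out single libraries or changing the filter ended the call of Npr1 (without P21 replicates 1 or 3 or P29 replicates 1 or 3, up to 0.119, with no filter, 0.0547) and Gnas and Lipe (without P21 replicates 1 or 3 or P29 replicates 1 or 3, up to 0.0721 and 0.1).

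Fatty acid uptake and activation had 9 of 17 tested members called higher and 2 lower. Acsl1, the main acyl-CoA synthetase of adipocytes, was at 281, 289 and 274 FPKM at P21 and 594, 549 and 646 at P29 (log2 change 1.08 ± 0.18 SE, adjusted p = 0.00217). Fabp5, a fatty acid carrier, was at 33.6, 27.5 and 19.97 FPKM at P21 and 89.2, 48.4 and 65.5 at P29 (log2 change 1.28 ± 0.26 SE, adjusted p = 0.00527). The lower calls were Angptl4 and Gpihbp1, both acting on the Lpl enzyme. Angptl4, a secreted inhibitor of Lpl, was at 294, 381 and 282 FPKM at P21 and 136, 174 and 140.3 at P29 (log2 change -1.08 ± 0.15 SE, adjusted p = 6.92e-04). Gpihbp1, the capillary anchor of Lpl, which endothelial cells express, was at 34.8, 23.3 and 20.6 FPKM at P21 and 8.59, 16.7 and 7.95 at P29 (log2 change -1.21 ± 0.43 SE, adjusted p = 0.0494). This call was close to the threshold and was lost in many settings for Gpihbp1 (without any 1 of 11 libraries, up to 0.16 without P21 replicate 1, under quantile normalization, 0.0531, under median-ratio scaling, 0.0618, with no filter, 0.0807, with a pseudocount of 0.1, 0.0521, with no trend, 0.0519).

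The called members of the oxidative lists were all higher, as were the mitochondrial transcripts. Of nuclear oxidative phosphorylation genes 20 of 37 tested members were called higher and 0 lower (0 lower at an unadjusted p under 0.05, 0 by voom), and 2 remained called higher with each of the 6 libraries left out in turn. Among the called were Ndufa1 (log2 change 1.07, adjusted p = 7.35e-04) and Ndufb3 (log2 change 0.83, adjusted p = 0.00494), subunits of complex I. For fatty acid oxidation 7 of 21 tested members were called higher and 0 lower (0 lower at an unadjusted p under 0.05, 0 by voom), against 12 higher in the 6-library fit and 2 with each of the 6 libraries left out in turn. They were led by Cpt2, the inner membrane carnitine transferase, at 30.7, 31.1 and 34.9 FPKM at P21 and 78, 65 and 74.5 at P29 (log2 change 1.14 ± 0.18 SE, adjusted p = 0.00158), and with Cpt1a, the outer membrane step, at a log2 change of 0.65. In the pyruvate dehydrogenase and citric acid cycle list 7 of 20 tested members were called higher and 0 lower (0 lower at an unadjusted p under 0.05, 0 by voom), with Cs, citrate synthase, at 121, 126 and 112 FPKM at P21 and 197, 150.1 and 186 at P29 (log2 change 0.56 ± 0.17 SE, adjusted p = 0.0256). The higher calls of that list became 12 after median-ratio scaling and 11 in the 6-library fit, and 0 held with each of the 6 libraries left out in turn. For Cs (without P21 replicates 1 or 3 or P29 replicates 1 or 3, up to 0.103) the call was lost.

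In glycolysis 7 of 17 tested members were called higher and 0 lower (2 lower at an unadjusted p under 0.05, 0 by voom). Tpi1, triosephosphate isomerase, was at 156, 174 and 128 FPKM at P21 and 384, 282 and 322 at P29 (log2 change 1.11 ± 0.16 SE, adjusted p = 0.0011). Ldha, lactate dehydrogenase A, was at 496, 571 and 458 FPKM at P21 and 1026, 808 and 816 at P29 (log2 change 0.79 ± 0.17 SE, adjusted p = 0.00744). Among insulin signalling and glucose handling genes 6 of 24 tested members were called higher and 1 lower. Pgd, a source of NADPH in the pentose phosphate pathway, was at 46.9, 46.3 and 34.6 FPKM at P21 and 102, 71.5 and 78.2 at P29 (log2 change 0.96 ± 0.20 SE, adjusted p = 0.00635). Gys2, a glycogen synthase isoform, was at 0.205, 0.186 and 0.029 FPKM at P21 and 1.31, 0.76 and 1.11 at P29, so its log2 change of 0.85 was at the edge of detection. Pdk4, which shuts pyruvate dehydrogenase in fasting, was called lower (77.2, 88.1 and 56.5 FPKM at P21 and 31.4, 49.2 and 34.4 at P29, log2 change -0.93 ± 0.25 SE, adjusted p = 0.0169). Other fits ended the call of Pdk4 (without P21 replicates 1 or 2 or P29 replicates 1 or 3, up to 0.0745).

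**Figure D3:**
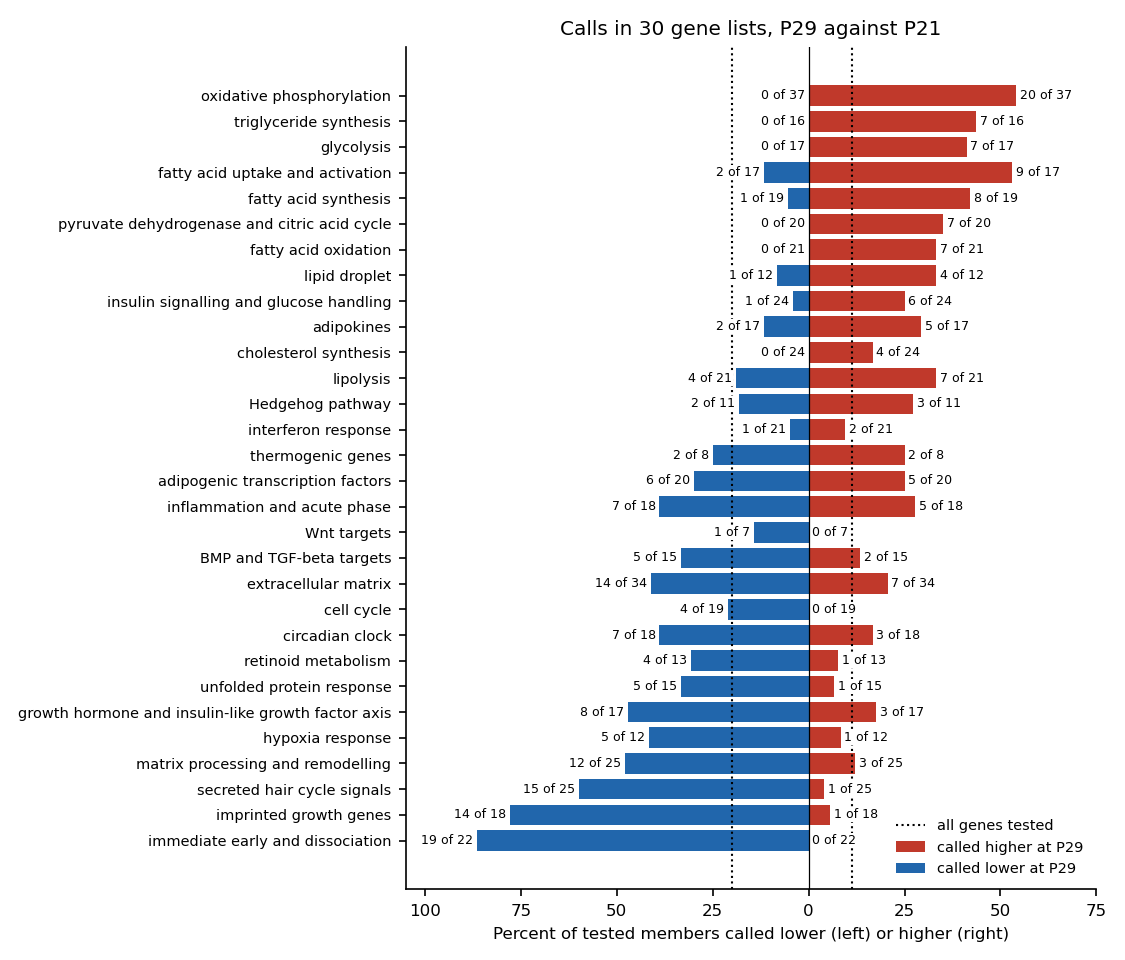
Bars give the percent of tested members called higher (red, to the right) and lower (blue, to the left) for 30 gene lists, with counts beside them and dotted lines at the all-gene shares of 11.3% and 19.9%. Oxidative phosphorylation reaches 20 of 37 called higher and immediate early genes 19 of 22 called lower.

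Of the mature adipocyte markers 10 of 18 tested members were called higher and 0 lower (0 lower at an unadjusted p under 0.05, 0 by voom), 5 remained higher with each of the 6 libraries left out in turn, with a median log2 change of 0.53. Pparg, the master regulator of adipogenesis, was at 92.6, 81.9 and 99.8 FPKM at P21 and 207, 193 and 199 at P29 (log2 change 1.12 ± 0.16 SE, adjusted p = 9.12e-04). Gpd1, which makes the glycerol backbone, was at 355, 388 and 355 FPKM at P21 and 904, 694 and 759 at P29 (log2 change 1.09 ± 0.21 SE, adjusted p = 0.00392). Tusc5, also called Trarg1, a partner of the glucose transporter GLUT4, was at 53.6, 49.3 and 67.3 FPKM at P21 and 217, 221 and 217 at P29 (log2 change 1.94 ± 0.17 SE, adjusted p = 4.49e-05). In each of these the groups were far apart relative to the spread within them. In bulk libraries fewer cells of a type and less RNA per cell cannot be told apart, and that holds for each list here.

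The adipogenic transcription factors split, with 5 of 20 tested members called higher and 6 lower. Cebpa, the partner of Pparg in mature fat cells, was at 330.2, 306 and 361 FPKM at P21 and 619.95, 603 and 642 at P29 (log2 change 0.91 ± 0.17 SE, adjusted p = 0.00429), and Esrra, a regulator of mitochondrial genes, rose by 0.70 on the log2 scale. Cebpd and Klf5, factors of early adipogenesis, were called lower. Cebpd was at 237, 261 and 313 FPKM at P21 and 110.4, 143 and 124 at P29 (log2 change -1.09 ± 0.22 SE, adjusted p = 0.00477), Klf5 had a log2 change of -1.31, and Gata2, which restrains adipogenesis and also marks mast cells, had one of -2.41. Among adipokines 5 of 17 tested members were called higher and 2 lower. Lrg1, a secreted glycoprotein, was at 174, 262 and 149 FPKM at P21 and 807, 1019.6 and 679.95 at P29 (log2 change 2.12 ± 0.23 SE, adjusted p = 1.94e-04). Nrg4, a neuregulin released by fat, was at 15.2, 12.9 and 16 FPKM at P21 and 42.3, 35 and 47.6 at P29 (log2 change 1.44 ± 0.26 SE, adjusted p = 0.00331), and Apln, apelin, rose by 1.36 on the log2 scale. Agt, angiotensinogen, was at 269, 389 and 305 FPKM at P21 and 158, 142 and 165 at P29 (log2 change -1.03 ± 0.26 SE, adjusted p = 0.0126), and Nampt, which makes an NAD precursor, fell by 0.61 on the log2 scale. Lep, leptin, was at 144, 267 and 199 FPKM at P21 and 284, 314 and 232 at P29, with overlapping groups and no call (log2 change 0.48 ± 0.24 SE, adjusted p = 0.136).

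Thermogenic genes gave no single direction. Of 16 listed, 8 were expressed enough to test, 2 were called higher and 2 lower, and 4 higher after quantile normalization. Cox8b was at 70.1, 48 and 44.4 FPKM at P21 and 155, 99.7 and 115 at P29 (log2 change 1.17 ± 0.30 SE, adjusted p = 0.0149) and Cox7a1 at 8.68, 6.57 and 3.81 FPKM at P21 and 19.6, 9.69 and 15.5 at P29 (log2 change 1.12 ± 0.29 SE, adjusted p = 0.0148), both cytochrome c oxidase subunits of brown fat and muscle. The creatine cycle genes Ckb and Slc6a8 were called lower, with log2 changes of -0.84 and -0.58. All 4 calls were lost without some single library, for Cox8b and Cox7a1 (without P21 replicate 3 or P29 replicate 1, up to 0.0689 and 0.0701) and Ckb and Slc6a8 (without P21 replicates 1 or 3 or P29 replicates 1 or 3, up to 0.0925 and 0.106).

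The extracellular matrix moved in 2 directions. Of the list 7 of 34 tested members were called higher and 14 lower, with a median log2 change of -0.68. The higher calls included basement membrane components. Col15a1, a collagen of the basement membrane zone, was at 112, 138 and 80.5 FPKM at P21 and 275, 259 and 246 at P29 (log2 change 1.26 ± 0.15 SE, adjusted p = 2.84e-04). Nid2, nidogen 2, which links laminin to collagen IV, was at 41, 57.4 and 37.3 FPKM at P21 and 115, 84 and 101 at P29 (log2 change 1.14 ± 0.17 SE, adjusted p = 0.00112). Col5a3, a type V collagen chain, was at 107, 138 and 76.4 FPKM at P21 and 313, 264 and 294 at P29 (log2 change 1.47 ± 0.19 SE, adjusted p = 4.12e-04). At P49 these 3 genes averaged 97.4, 40.5 and 90.6 FPKM for Col15a1, Nid2 and Col5a3, within or near their P21 range. The largest lower calls were proteins of the interstitial matrix. Eln, elastin, was at 205, 80.7 and 103 FPKM at P21 and 13.7, 22.6 and 13 at P29 (log2 change -2.83 ± 0.61 SE, adjusted p = 0.00723). Fn1, fibronectin, was at 154, 90.04 and 118 FPKM at P21 and 14.1, 29.6 and 13.9 at P29 (log2 change -2.64 ± 0.61 SE, adjusted p = 0.00963). Thbs1, thrombospondin 1, was at 187, 137 and 162 FPKM at P21 and 23.5, 49.7 and 17.5 at P29 (log2 change -2.51 ± 0.47 SE, adjusted p = 0.00376). P29 replicate 2 was the highest P29 library for each of the lower 3.

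For matrix processing and remodelling 3 of 25 tested members were called higher and 12 lower, with a median log2 change of -1.07. Ctsk, the collagen-degrading cathepsin K, was at 136, 56.2 and 116 FPKM at P21 and 8.76, 19.7 and 8.77 at P29 (log2 change -2.95 ± 0.59 SE, adjusted p = 0.00513), and Mmp14 and Mmp2, a membrane protease and the gelatinase it activates, had log2 changes of -2.59 and -2.56. Plod3, a collagen lysyl hydroxylase, rose by 0.85 on the log2 scale, and Adamts5, an aggrecanase, was at 16, 14.1 and 12.1 FPKM at P21 and 25, 33.3 and 26.5 at P29 (log2 change 0.96 ± 0.15 SE, adjusted p = 0.00134), opposite to the fall of its relative Adamts4. Fibroblast markers were lower too. Of 20 preadipocyte and fibroblast markers 1 was called higher and 14 lower, with a median log2 change of -1.90, and the summed level was 5678 to 6399 FPKM at P21 and 3721 to 3962 at P29. Gsn, one of these fibroblast markers with levels given above, made up a large part of that sum at both ages. Pdgfra, the receptor that marks these cells, was at 24.2, 12.1 and 15.6 FPKM at P21 and 1.89, 4.12 and 2.08 at P29 (log2 change -2.31 ± 0.55 SE, adjusted p = 0.0109), and Pi16 and Clec3b, genes of progenitor-rich fibroblasts, had log2 changes of -2.83 and -2.73. The exception was Dpt, dermatopontin (log2 change 0.46, adjusted p = 0.0119). The part of these cells in the matrix counts was not tested. The call was lost for Dpt (without P29 replicate 1, 0.0519).

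The growth hormone and insulin-like growth factor axis had 3 of 17 tested members called higher and 8 lower. Igf1, the factor that adipocytes make under growth hormone, was at 46.4, 47.5 and 60.4 FPKM at P21 and 104, 106 and 114 at P29 (log2 change 1.06 ± 0.17 SE, adjusted p = 0.00149), with no overlap and the highest mean of the 5 ages at P29. Igf2, its fetal relative, was at 17.1, 8.73 and 13.1 FPKM at P21 and 0.355, 1.42 and 0.67 at P29 (log2 change -2.94 ± 0.36 SE, adjusted p = 3.82e-04). Igfbp5, a binding protein, was at 99.7, 45.4 and 85.7 FPKM at P21 and 22.1, 21.6 and 24.4 at P29 (log2 change -1.65 ± 0.27 SE, adjusted p = 0.00186), beside the fall of Igfbp3 given above. Ghr, the growth hormone receptor, was at 303, 379.7 and 335 FPKM at P21 and 506, 498 and 541 at P29 (log2 change 0.61 ± 0.20 SE, adjusted p = 0.0404). It had the weakest of these calls, and an adjusted p above 0.05 was obtained for Ghr (without any 1 of 11 libraries, up to 0.13 without P21 replicate 1, with no filter, 0.0675).

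Igf2 and H19 are imprinted, that is, expressed from 1 parental copy, and belong to a set of growth genes that is switched down together after birth in many mouse tissues. Of the 18 imprinted growth genes tested, 14 were called lower and 1 higher, with a median log2 change of -0.61. After quantile normalization or median-ratio scaling 11 were called lower. Zim1, a zinc finger gene, was at 15.9, 12.5 and 17.5 FPKM at P21 and 1.97, 3.35 and 3.2 at P29 (log2 change -2.09 ± 0.29 SE, adjusted p = 9.09e-04). The exception was Mest, also called Peg1, which tracks adipocyte expansion, at 20.4, 43.8 and 19.2 FPKM at P21 and 91.7, 194 and 77 at P29 (log2 change 2.06 ± 0.35 SE, adjusted p = 0.00251). P29 replicate 2 held by far the highest value of Mest, and its mean was 63.5, 124 and 14.2 FPKM at P25, P35 and P49. At P49 it was thus below P21, while Igf2 stayed low with means of 2.76, 0.615 and 0.791 FPKM.

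**Figure D4:**
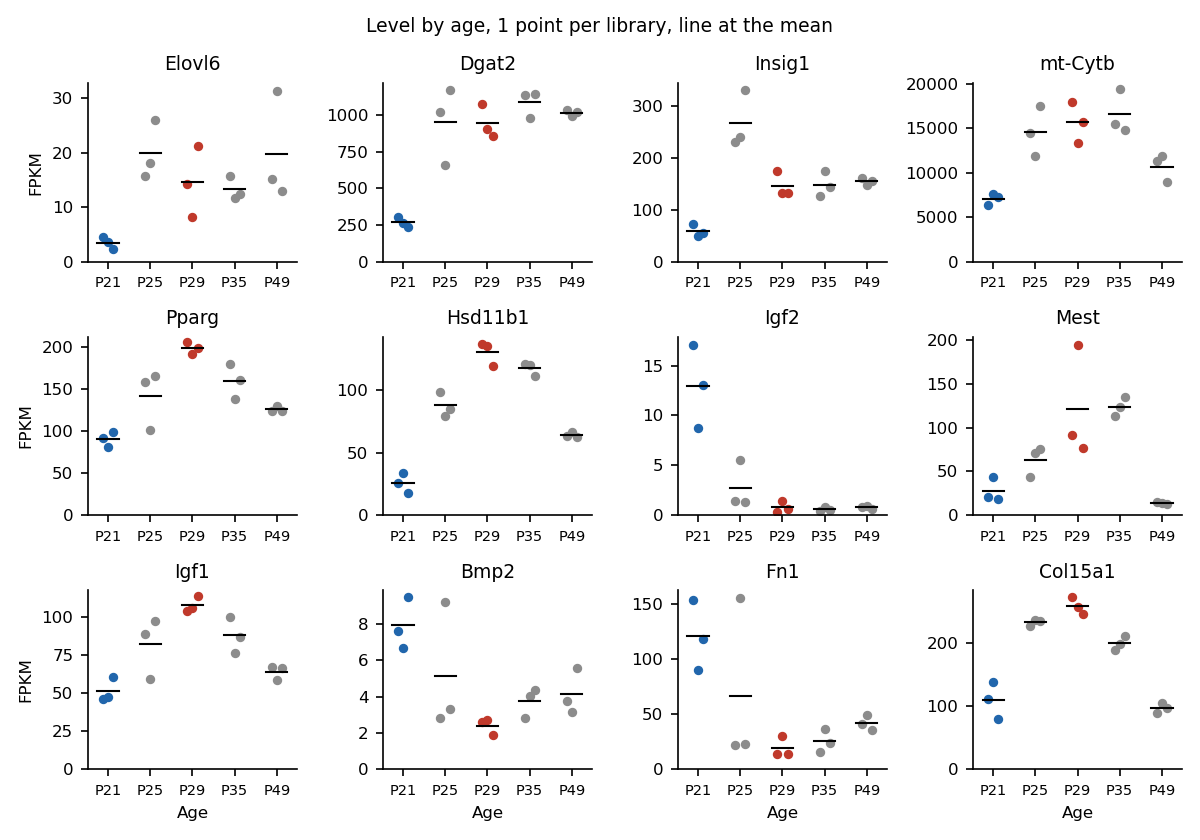
Levels of 12 genes are shown in FPKM on linear axes starting at 0, 1 point per library and a line at each age's mean, with P21 in blue, P29 in red and the other ages in grey. Dgat2 and Igf2 keep their P29 level at P35 and P49, whereas Hsd11b1, Igf1, Mest and Col15a1 are lower at P49 than at P29, and at P25 replicate 2 stands apart in Fn1 and Bmp2.

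Secreted signals known from work on the hair cycle were mostly lower. Of the list 1 of 25 tested members was called higher and 15 lower, with a median log2 change of -1.09. Bmp2, which adipocytes send to resting follicles and which holds them at rest, was at 7.6, 6.71 and 9.48 FPKM at P21 and 2.61, 2.71 and 1.88 at P29 (log2 change -1.39 ± 0.31 SE, adjusted p = 0.00866). Bmp4, of the same family, was at 9.44, 5.61 and 5.58 FPKM at P21 and 2.51, 3.13 and 2.25 at P29 (log2 change -1.09 ± 0.32 SE, adjusted p = 0.0253). Nog, noggin, an antagonist of both, was the single member called higher on deposited FPKM (3 members after quantile normalization and 2 after median-ratio scaling), at 10.4, 15.7 and 16.5 FPKM at P21 and 34.1, 23.4 and 26.3 at P29 (log2 change 0.93 ± 0.27 SE, adjusted p = 0.0218). Dkk2 and Dkk3, of the Dickkopf family of secreted proteins, fell by 1.45 and 2.32 on the log2 scale. Kitl, the ligand that supports melanocytes and mast cells, was at 25.1, 25.7 and 17.6 FPKM at P21 and 6.2, 9.6 and 7.17 at P29 (log2 change -1.46 ± 0.25 SE, adjusted p = 0.00241). The groups stood apart in all of these genes. Pdgfa, which adipocyte precursors send to the follicle, was at 4.57, 3.41 and 5.26 FPKM at P21 and 4.96, 4.85 and 4.45 at P29 and did not pass (log2 change 0.10 ± 0.14 SE, adjusted p = 0.603). Hgf, a growth factor for epithelial cells, was at 1.88, 1.34 and 2.28 FPKM at P21 and 2.49, 2.77 and 2.28 at P29, where the groups almost touched and the gene was not called (log2 change 0.32 ± 0.14 SE, adjusted p = 0.0982). Other fits ended the call of Bmp4 and Nog (without P21 replicate 1 or P29 replicates 1 or 3, up to 0.101 and 0.0922).

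In the Hedgehog pathway 3 of 11 tested members were called higher and 2 lower, and 4 lower in the 6-library fit. Sufu, an inhibitor of the pathway, was at 10.1, 11.3 and 9.55 FPKM at P21 and 18.8, 18.3 and 19.4 at P29 (log2 change 0.81 ± 0.16 SE, adjusted p = 0.00439), and the co-receptor Cdon rose by 0.96 on the log2 scale. The co-receptors Gas1 and Boc were called lower, with Gas1 at 27.5, 12.1 and 17.3 FPKM at P21 and 1.7, 4.04 and 2.08 at P29 (log2 change -2.45 ± 0.48 SE, adjusted p = 0.0047) and Boc at a log2 change of -0.96. For Wnt targets 0 of 7 tested members were called higher and 1 lower (2 higher at an unadjusted p under 0.05, 0 by voom), with 1 higher after quantile normalization, 2 after median-ratio scaling and 1 in the 6-library fit. The lower call was Lgr5 (log2 change -1.16, adjusted p = 0.0061), which was under 2 FPKM in all 6 libraries. Among BMP and TGF-beta targets 2 of 15 tested members were called higher and 5 lower, and 8 lower in the 6-library fit. Besides Pmepa1, Smad6, an inhibitor induced by BMP, rose by 1.01 on the log2 scale, while Id3, another BMP target, was at 207, 202 and 183 FPKM at P21 and 111, 118 and 80.7 at P29 (log2 change -0.95 ± 0.22 SE, adjusted p = 0.0106) and Tgfbi, a TGF-beta induced matrix protein, at 122, 76.7 and 129.5 FPKM at P21 and 17.8, 28.7 and 18.2 at P29 (log2 change -2.29 ± 0.46 SE, adjusted p = 0.00557).

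Immediate early genes, which respond within minutes to growth signals, stress and tissue digestion, had the highest share of calls among the 30 pathway lists. Of the 22 tested 19 were called lower and 0 higher (0 higher at an unadjusted p under 0.05, 0 by voom), with a median log2 change of -1.46. Fos was at 788, 659 and 701 FPKM at P21 and 219.7, 329 and 245 at P29 (log2 change -1.45 ± 0.31 SE, adjusted p = 0.00746). Fosb was at 449, 370.1 and 327 FPKM at P21 and 89.3, 128 and 99 at P29 (log2 change -1.85 ± 0.32 SE, adjusted p = 0.00296), and Nr4a1 and Egr3 had log2 changes of -2.24 and -2.44. The groups did not overlap in any of these. The part of handling and digestion in this difference was not tested.

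Inflammation and acute phase genes were called on both sides. Of the list 5 of 18 tested members were called higher and 7 lower. Besides Orm1 and Orm2, Saa3, a serum amyloid of adipocytes and macrophages, was at 50.1, 50.6 and 36 FPKM at P21 and 95.3, 144 and 55.2 at P29 (log2 change 1.00 ± 0.35 SE, adjusted p = 0.0456). Nfkbia, the inhibitor that NF-kappa-B induces, was at 423, 448 and 406 FPKM at P21 and 173, 219 and 170.2 at P29 (log2 change -1.19 ± 0.20 SE, adjusted p = 0.00218). Cxcl1, a neutrophil chemokine, was at 529, 569 and 429 FPKM at P21 and 183, 239 and 148 at P29 (log2 change -1.44 ± 0.32 SE, adjusted p = 0.008). All 3 P29 libraries were below all P21 libraries in these 2 genes, and above them in Saa3. Il6, a cytokine of stressed and immune cells, was at 118, 38.8 and 64.7 FPKM at P21 and 8.07, 11.4 and 4.74 at P29 (log2 change -2.97 ± 0.74 SE, adjusted p = 0.0135). Among interferon response genes 2 of 21 tested members were called higher and 1 lower. Irf1 was at 149, 137 and 131 FPKM at P21 and 50.1, 53.2 and 44.7 at P29 (log2 change -1.48 ± 0.26 SE, adjusted p = 0.00313), whereas Ifit3, an interferon-induced gene, was called higher, with a log2 change of 1.17 and its highest value in P29 replicate 2. An adjusted p above 0.05 was obtained for Saa3 (without any 1 of 9 libraries, up to 0.146 without P29 replicate 2, in the 6-library fit, 0.0582, with no filter, 0.0747, with library weights, 0.056), Il6 (without P21 replicate 1 or P29 replicate 3, up to 0.0582) and Ifit3 (without any 1 of 11 libraries, up to 0.159 without P29 replicate 2, with no filter, 0.0799, with no trend, 0.0513, with library weights, 0.0703, by voom on recovered reads, 0.0638).

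Core clock genes were called on both sides. Of 18 tested 3 were called higher and 7 lower, and the list's median of -0.06 was above 0 in an alternative scaling. Dbp, an output gene driven by the clock, was at 24.6, 25.1 and 24.9 FPKM at P21 and 91.9, 79.1 and 92.6 at P29 (log2 change 1.78 ± 0.21 SE, adjusted p = 2.93e-04). Nr1d1, the repressor REV-ERB alpha, was at 31.1, 33.5 and 31.4 FPKM at P21 and 52.9, 62.8 and 65.5 at P29 (log2 change 0.89 ± 0.16 SE, adjusted p = 0.00311). The values within each age were close to one another for Dbp. Arntl, the activator BMAL1 that Nr1d1 represses, was at 3.17, 2.3 and 2.46 FPKM at P21 and 0.792, 1.18 and 0.422 at P29 (log2 change -1.03 ± 0.24 SE, adjusted p = 0.0105), and Cry1 and Nfil3, 2 further clock repressors, had log2 changes of -0.99 and -0.99. The hour of harvest is not given, so age and time of day cannot be told apart for these genes.

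For the unfolded protein response 1 of 15 tested members was called higher and 5 lower, and 8 lower in the 6-library fit. Atf4, its translation-controlled factor, was at 171, 134 and 134 FPKM at P21 and 80.3, 93.1 and 65.6 at P29 (log2 change -0.88 ± 0.26 SE, adjusted p = 0.0249). Ddit3, CHOP, was at 32.9, 31.2 and 44 FPKM at P21 and 14.5, 18.4 and 13.3 at P29 (log2 change -1.17 ± 0.34 SE, adjusted p = 0.0236), while Xbp1, a secretory pathway regulator, was called higher (log2 change 0.55, adjusted p = 0.0141). In the hypoxia response 1 of 12 tested members was called higher and 5 lower, with Adm, the vasodilator adrenomedullin, at 75.7, 107 and 72.2 FPKM at P21 and 21.9, 32.5 and 16.9 at P29 (log2 change -1.82 ± 0.32 SE, adjusted p = 0.00321) and Kdm3a, a histone demethylase, at a log2 change of -0.78. For retinoid metabolism 1 of 13 tested members was called higher and 4 lower, and the sign of its median changed with scaling. Cyp26b1, which degrades retinoic acid, was at 20.01, 6.24 and 5.83 FPKM at P21 and 0.312, 0.696 and 0.187 at P29 (log2 change -2.87 ± 0.40 SE, adjusted p = 9.09e-04). Aldh1a7, of the aldehyde dehydrogenase family, was at 17.2, 20.8 and 8.58 FPKM at P21 and 48.7, 26.4 and 38.5 at P29 (log2 change 1.27 ± 0.29 SE, adjusted p = 0.00964). The call was lost for Atf4 and Ddit3 (without P21 replicates 1 or 3 or P29 replicates 1 or 3, up to 0.0917 and 0.0815) and Xbp1 (without P21 replicate 1 or P29 replicate 1, up to 0.0624).

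The cell cycle list holds genes of dividing cells and also the arrest gene Cdkn1a. Its sum was 182 to 231 FPKM at P21 and 77.5 to 124 at P29. Of 19 cell cycle genes tested 4 were called lower and 0 higher (0 higher at an unadjusted p under 0.05, 0 by voom). Mki67, a marker of dividing cells, was at 1.94, 1.87 and 1.55 FPKM at P21 and 0.801, 1.95 and 0.763 at P29 with overlapping groups (log2 change -0.40 ± 0.39 SE, adjusted p = 0.447). Cdkn1a, the arrest gene p21, was at 108, 97.3 and 83.1 FPKM at P21 and 26.3, 40.4 and 24 at P29 (log2 change -1.66 ± 0.37 SE, adjusted p = 0.00791), and the replication genes Pcna and Mcm3 fell by 0.77 and 0.92 on the log2 scale. Other fits ended the call of Pcna (without P21 replicates 1 or 3 or P29 replicates 1 or 3, up to 0.103) and Mcm3 (without any 1 of 7 libraries, up to 0.137 without P29 replicate 1, under quantile normalization, 0.0534, with no filter, 0.0623).

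Markers of other skin cells were measured in the same libraries. All 6 tested mast cell genes of 8 listed were called lower and 0 higher (0 higher at an unadjusted p under 0.05, 0 by voom), with a median log2 change of -3.17 and a summed level of 316 to 533 FPKM at P21 and 23 to 65.8 at P29. Of 15 endothelial genes tested 10 were called lower and 0 higher (0 higher at an unadjusted p under 0.05, 0 by voom), 2 remained lower with each of the 6 libraries left out in turn, and the sum was 251 to 431 FPKM at P21 and 73.6 to 159.8 at P29. Pecam1 was at 67.5, 31.4 and 42.8 FPKM at P21 and 12, 24.4 and 9.11 at P29 (log2 change -1.62 ± 0.49 SE, adjusted p = 0.0283) and Cldn5, of endothelial junctions, at 76, 34.2 and 48.2 FPKM at P21 and 8.5, 9.22 and 4.12 at P29 (log2 change -2.69 ± 0.57 SE, adjusted p = 0.00677). The macrophage and monocyte list had 5 of 15 called lower and a sum of 1139 to 2013 FPKM at P21 and 537 to 1113 at P29. Cd163, of tissue macrophages, was at 92.5, 72.6 and 122 FPKM at P21 and 19.95, 29.4 and 22.9 at P29 (log2 change -1.93 ± 0.40 SE, adjusted p = 0.00624). For erythroid genes all 5 tested were called lower and the sum was 207 to 338 FPKM at P21 and 43.4 to 104 at P29. Hbb-bs was at 158, 97.7 and 118 FPKM at P21 and 24.8, 47.7 and 19.1 at P29 (log2 change -2.07 ± 0.45 SE, adjusted p = 0.0075), and the globin genes are near-identical copies. P29 replicate 2 had the highest sum of the 3 P29 libraries for the mast cell, endothelial, macrophage and erythroid lists. The part of these cells in the differences given above was not tested. An adjusted p above 0.05 was obtained for Pecam1 (without P21 replicates 1 or 3 or P29 replicates 1 or 3, up to 0.108).

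Smooth muscle genes had 4 of 8 called lower (2 by voom, 3 after quantile normalization, 6 in the 6-library fit, 1 with each of the 6 libraries left out in turn) and a sum of 77.3 to 152 FPKM at P21 and 36.9 to 58.5 at P29, with Myh11 at 9.15, 3.29 and 4.13 FPKM at P21 and 0.647, 1.34 and 0.541 at P29 (log2 change -1.74 ± 0.37 SE, adjusted p = 0.00644). Skeletal muscle genes had 8 of 10 called lower in the 15-library fit but 1 of 10 in the 6-library fit and 3 of 10 by voom on recovered reads, and their sums of 74.7 to 444 FPKM at P21 and 56.6 to 73.9 at P29 nearly met, with P21 replicate 1 far above the rest. Acta1, skeletal actin, was at 145, 37.3 and 18.4 FPKM at P21 and 6.78, 14.3 and 11.1 at P29 (log2 change -2.07 ± 0.60 SE, adjusted p = 0.023). Other fits ended the call of Acta1 (without P21 replicate 1 or P29 replicates 1 or 3, up to 0.0924, in the 6-library fit, 0.0593). Pericyte genes went both ways, with 2 of 8 called higher, Cspg4 and Mcam (log2 change 0.82, adjusted p = 0.00265), and 1 lower. At an unadjusted p under 0.05 there were 2 higher and 4 lower, and the list's median log2 change was -0.88. The sum went the other way than the median, at 133 to 187 FPKM at P21 and 207 to 243 at P29. Nerve and Schwann cell genes had 1 of 7 called higher, Pmp22 (log2 change 0.69, adjusted p = 0.00234), and 3 lower, among them Ncam1 (log2 change -1.11, adjusted p = 0.00644). Their median log2 change was -0.42, while the sum was 164 to 233 FPKM at P21 and 238 to 259.9 at P29.

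Epithelial and lymphoid RNA was scarce. Of 14 lymphocyte genes 12 stayed under 1 FPKM in all 6 libraries, and both tested genes, Cd2 and Cd4, were called lower, with log2 changes of -0.88 and -0.89. Of 13 keratinocyte genes 7 stayed under 1 FPKM and the sum was 10.1 to 21.4 FPKM at P21 and 10.003 to 11.3 at P29, with overlapping groups. Krt14 was at 3.4, 1.32 and 1.5 FPKM at P21 and 0.597, 0.433 and 0.298 at P29 (log2 change -1.03 ± 0.30 SE, adjusted p = 0.0223). Of 8 melanocyte genes 5, among them Tyr and Mlana, stayed under 1 FPKM, and of 8 dermal papilla genes 2 did, with Prom1 (log2 change -1.21, adjusted p = 0.0019) among 2 called lower (4 in the 6-library fit). Of the 3 melanocyte genes tested 1 was called lower and 0 higher, with a median log2 change of 0.26. After quantile normalization 0 of them were called lower and 1 higher. The sums were 10.4 to 12.9 FPKM at P21 and 7.62 to 10.7 at P29 for melanocyte genes, where 1 P29 library lay within the P21 range, and 14.6 to 21.9 FPKM at P21 and 6.83 to 10.8 at P29 for dermal papilla genes, without overlap. Of 6 hair shaft and inner root sheath genes tested 0 were called higher and 0 lower (0 in either direction at an unadjusted p under 0.05, 0 by voom), while the 6-library fit called 2 higher. In all 6 genes every P29 library lay above every P21 library, as in 20.3% of all genes tested. The median log2 change was 0.60, and 3.88 by voom. The list's sum was 0.421 to 0.756 FPKM at P21 and 3.75 to 11.6 at P29, and 8 of 12 members stayed under 1 FPKM in all 6 libraries. At P25, whose libraries entered the spread, the sum was 3.14, 132 and 31.8 FPKM. Krt71, an inner root sheath keratin of growing follicles, was at 0.0622, 0.0521 and 0.0353 FPKM at P21 and 4.07, 1.46 and 0.502 at P29, with no overlap and an adjusted p of 0.238. Its means were 19.5, 3.91 and 0.0333 FPKM at P25, P35 and P49. None of these lists had a member at 0 in all 6 libraries. The call was lost for Cd4 (without P21 replicate 3 or P29 replicates 1 or 3, up to 0.0779) and Krt14 (without P21 replicate 1 or P29 replicates 1 or 3, up to 0.0942).

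**Figure D5:**
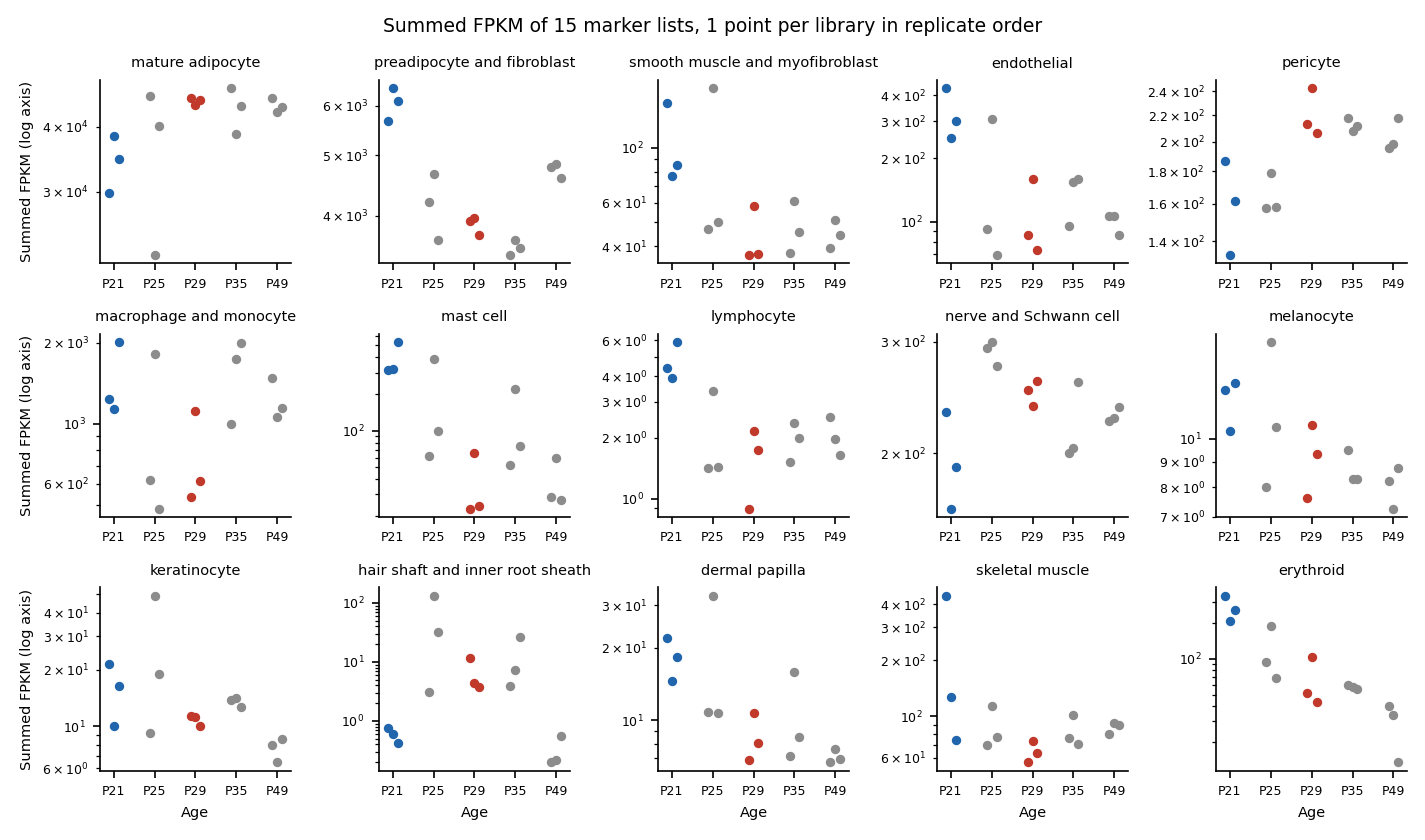
Summed FPKM of 15 marker lists is shown on logarithmic axes that differ between panels, 1 point per library in replicate order, with P21 in blue, P29 in red and the other ages in grey. The mast cell, endothelial and erythroid sums are lower at P29 in all 3 libraries, the hair shaft sum is higher, and the keratinocyte sums overlap.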

How the data were processed

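Transcript levels were read from the FPKM table that the authors deposited, with 35275 genes in 15 libraries, of which 10482 were at 0 throughout. Per the submitters' processing notes, STAR 2.5 and HTSeq 0.6.1 were used on mm10/GRCm38. The annotation release and the strand setting are not given in the sources used here, so overlapping and antisense genes are uncertain. FPKM times the deposited gene length gave whole reads, within 0.05 read for 100% of genes.

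The test took genes reaching 1 FPKM in 3 or more libraries (12259) as log2(FPKM + 1), in limma 3.58.1 (R 4.3.3). All 15 libraries shared 1 estimate of the spread, with trended and robust empirical Bayes moderation (statmod 1.5.0). The P29 minus P21 contrast was adjusted by Benjamini-Hochberg at 0.05. Alternatives were the 6 libraries alone, the 12 without P25, quantile normalization, median-ratio scaling, no filter, a pseudocount of 0.1, no trend, library weights, a replicate block, voom on recovered reads (3779 calls, 3671 of them shared) and leaving out each library.

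Genes named were the 12 largest rises and falls at 5 FPKM or more without overlap and still called with each of the 6 libraries left out, the 10 largest gains and losses in FPKM, up to 3 called members per direction of 45 lists (668 of 760 genes tested), and a short set of markers named whatever their change. The members and lists were chosen with earlier results of these data known. The procedure was tested on simulated data. Promoters were matched to RefSeq by symbol. Figures were drawn with Python 3.11.15 and matplotlib 3.10.9.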

Additional observations from a re-analysis of the deposited data

How the results depend on the processing

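Against 3823 calls (1381 higher and 2442 lower), leaving out 1 library gave 1422 (602 higher and 820 lower, without P29 replicate 1) to 5668 (2089 higher and 3579 lower, without P25 replicate 2). Without P21 replicates 1 and 3 and P29 replicate 3 the counts were 1733, 2117 and 2136. Calls in each of the 6 fits that leave out a P21 or P29 library numbered 1275 (534 higher and 741 lower). The 12 libraries without P25 gave 2028 higher and 3454 lower, library weights 2025 and 3708, and the 6 libraries alone 1528 and 2719. Quantile normalization turned the split to 2276 higher and 1544 lower and median-ratio scaling to 1973 and 1885. The remaining settings stayed within 1.5 times of each count.

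Of the 209 genes eligible for naming 201 were called, and 1 of those 201 changed direction in another fit, under a setting other than a left-out library. Changes of direction were not counted for the genes without a call. The log2 change of Fabp4 was -0.0443 after quantile normalization (adjusted p = 0.739), and the cause was not tested. Of the 201 called, 65 lost the call without 1 of the 15 libraries. Over all pairs of gene and fit, 316 lost a call (Fabp4 under quantile normalization aside) and 12 gained one. The medians of the circadian clock and retinoid metabolism lists changed sign with scaling.

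Same-numbered P21 and P29 libraries correlated at -0.15, -0.44 and -0.03 in their deviations from the age means, so the numbers were not taken as pairs. With the replicate block 3888 genes were called (1414 higher and 2474 lower). Depth limits little above 1 FPKM, and 3 libraries per age and the unstated source of each library limit the rest.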
